A study of Mus musculus with 6 samples.

Results

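The genes described here are the 37 that fold, modify, process and cross-link fibrillar collagen, taken by gene name from the 31613 genes of the deposited count table. They are the prolyl and lysyl hydroxylases, the chaperones and isomerases of the endoplasmic reticulum (ER), the propeptidases with their enhancers, the lysyl oxidases, the matrix protein *Sparc*, and *Creb3l1*, a transcription factor that activates collagen genes. All 37 were found and all 37 passed the filter on low counts, among 16519 genes tested. They were measured by RNA-seq in mouse dental papilla cells (mDPCs), the mesenchyme of the tooth germ from which odontoblasts arise, taken from first lower molars at postnatal day 6. The tested mice were *Dmp1*-Cre;*Setd2* fl/fl mice (cKO), with 3 libraries. Here *Dmp1*-Cre removes *Setd2*, the enzyme that trimethylates lysine 36 of histone H3, from cells that express *Dmp1*, chiefly odontoblasts, so the other cells of the papilla keep the gene. The controls, with 3 libraries, carry the genotype "wild type" in the sample labels, while the study's methods give *Setd2* fl/fl mice. A library was made from the pooled RNA of 3 biological replicates. The study's list of animals gives fewer mice per genotype for this collection than 3 libraries of 3 mice each would need, so, if a biological replicate is a mouse, pools shared mice and the libraries may not be independent. The p-values therefore reflect only how far pooled libraries vary, and part of that may be technical.

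Fibrillar collagens are made as procollagen in the ER. There, hydroxylases modify prolines and lysines while the chains are still unfolded, glycosyltransferases add sugar to hydroxylysine, and isomerases and the chaperone HSP47 let the triple helix close and keep it from aggregating. After export, propeptidases cut the ends from procollagen, fibrils form, and lysyl oxidases start the covalent cross-links that give the matrix its strength. Odontoblasts secrete such a matrix, rich in type I collagen, as predentin, and it later mineralizes to dentin.

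Depth was even, at 18557647 to 19164358 counts per cKO library and 18894240 to 19210750 per control library, and the 37 genes took 0.899% to 1.51% of the counts in cKO libraries and 1.99% to 2.19% in control libraries. Levels are given as CPM, in which counts are put on the scale of library size after TMM normalization. *Setd2* itself had 102, 98.5 and 96.0 CPM in the cKO libraries, against 98.0, 96.5 and 92.0 CPM in the control libraries. Reads from any part of the gene in any collected cell enter this count, and it is no check of the genotype. Of all 448 genes lower at the study's thresholds, 337 (75.2%) had cKO replicate 3 above both other cKO libraries and below every control, and 389 (86.8%) had it closer to the control mean than the mean of cKO replicates 1 and 2 was.

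A group of these genes was lower in cKO than in control libraries, and the roles with the largest median differences were the late ones outside the cell, propeptide removal and cross-linking. The study's thresholds ask for a log2 fold change of 0.58 or more in either direction together with an unadjusted p under 0.05. By these, 13 of the 37 genes (35.1%) were lower, against 2.71% of all genes tested by edgeR. None of the 37 was higher, against 1.1% of all genes. The 13 were *P3h1*, *P3h2*, *Fkbp7*, *Fkbp11*, *Creb3l1*, *Bmp1*, *Adamts2*, *Adamts14*, *Pcolce*, *Lox*, *Loxl3*, *Loxl4* and *Sparc*. In all, 30 of the 37 log2 fold changes were negative, with a median of -0.41, beside a median of 0.02 over all genes tested. In 18 of the 37 genes every cKO library lay below every control library, which held for 7.98% of all genes, and in 1 of the 37 every cKO library lay above, against 7.26% of all genes. At an unadjusted p under 0.05, whatever the fold, 17 of the 37 were lower, against 4.41% of all genes. At an adjusted p under 0.05 edgeR called none of the 37 lower, as it called no gene at all (0.0%), while 729 genes were lower and 523 higher before adjustment at the same limit. Adjusted p-values of the 37 genes in edgeR lay between 0.558 and 0.987. In bulk RNA, fewer cells of a type and less RNA per cell cannot be told apart.

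**Figure D1:**
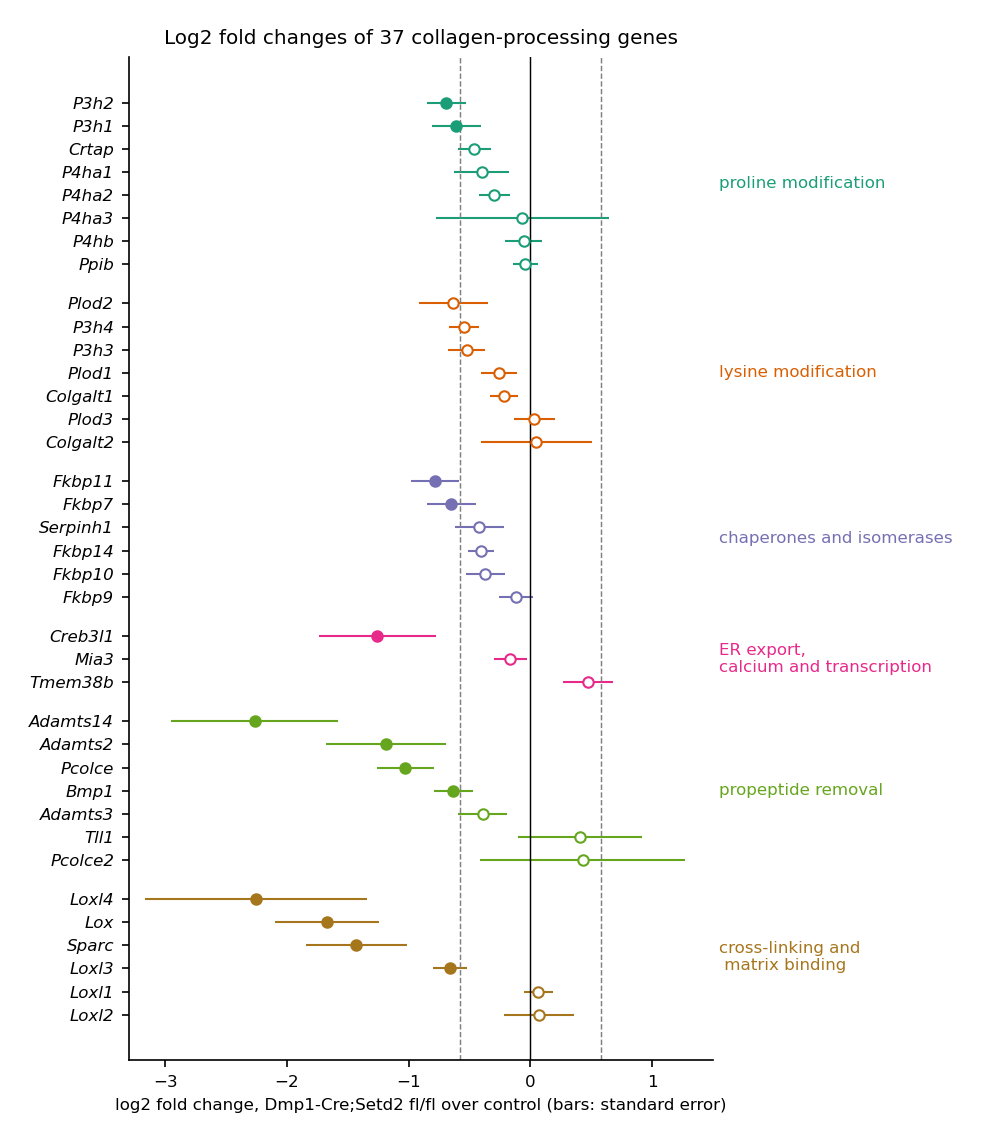
Log2 fold changes of the 37 genes (horizontal axis, cKO over control, bars show the standard error), grouped by role. Filled points are the 13 genes lower at the study's thresholds, and dashed lines mark 0.58 in either direction. *Adamts14* at -2.26 and *Loxl4* at -2.25 lie farthest to the left, and *Ppib*, *P4hb*, *Plod3*, *Loxl1* and *Loxl2* lie near 0.

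Among the 8 genes of proline modification, 2 passed the study's thresholds as lower, with a median log2 fold change of -0.35 and all 8 values below 0. *P3h2*, a prolyl 3-hydroxylase (ENSMUSG00000038168, chromosome 16, 25959288 to 26105784), had 12.9, 14.4 and 17.7 CPM in the cKO libraries, against 21.9, 23.9 and 26.7 CPM in the control libraries. Every cKO library was below every control library, with the highest value of each group in replicate 3. Positions of genes are those of the deposited table, which match GRCm38 far more often than GRCm39, the build named in the submitters' notes. The difference was -0.69 ± 0.16 as a log2 fold change with its standard error (adjusted p = 0.558 in edgeR), the smallest p of this role. *P3h1*, which hydroxylates a single proline of the type I collagen chain in a complex with *Crtap* and *Ppib* (ENSMUSG00000028641, chromosome 4, 119232915 to 119248975), had 132, 128 and 186 CPM in the cKO libraries, against 203, 199 and 278 CPM in the control libraries. The groups did not overlap, and cKO replicate 3 came close to control replicates 1 and 2, at a log2 fold change of -0.61 ± 0.20 (adjusted p = 0.626 in edgeR). *P4hb*, protein disulfide isomerase and the beta subunit of prolyl 4-hydroxylase, had the highest count of this role, with 671, 784 and 831 CPM in the cKO libraries, against 705, 748 and 922 CPM in the control libraries. Its groups overlapped throughout, at a log2 fold change of -0.05 ± 0.15.

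The partners of *P3h1* and the catalytic subunits of prolyl 4-hydroxylase are named here after their values were seen. *Crtap*, the scaffold of the 3-hydroxylation complex, had 163, 177 and 218 CPM in the cKO libraries, against 242, 251 and 274 CPM in the control libraries, with no overlap and a log2 fold change of -0.46 ± 0.14, which is under the fold of the study's thresholds. *Ppib*, cyclophilin B, the isomerase of the same complex, had 99.7, 112 and 98.4 CPM in the cKO libraries, against 108, 98.9 and 111 CPM in the control libraries. Its groups overlapped, at a log2 fold change of -0.04 ± 0.10, so within this complex *P3h1* and *Crtap* were lower at an unadjusted p under 0.05 while *Ppib* was not, a contrast between genes that was not tested. Of the 4-hydroxylase alpha subunits, *P4ha2* had no overlap (-0.30 ± 0.13), *P4ha1* overlapped (-0.40 ± 0.23), and *P4ha3*, at 3.27 CPM in cKO and 3.42 CPM in control libraries on average, was too variable to place (-0.07 ± 0.71).

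None of the 7 genes of lysine modification met the study's thresholds, although 2 were lower at an unadjusted p under 0.05. *P3h4*, which with *P3h3* and *Plod1* forms a complex that hydroxylates lysines of the helix (ENSMUSG00000006931, chromosome 11, 100408456 to 100414836), had 93.4, 115 and 118 CPM in the cKO libraries, against 153, 155 and 168 CPM in the control libraries. Every cKO library was below every control library, and a log2 fold change of -0.55 ± 0.12 missed the fold limit alone (adjusted p = 0.558 in edgeR). *P3h3*, the gene of this role with the highest CPM (ENSMUSG00000023191, chromosome 6, 124841089 to 124857752), had 179.7, 155 and 224 CPM in the cKO libraries, against 249, 269 and 284 CPM in the control libraries, again with no overlap and a log2 fold change of -0.52 ± 0.15 (adjusted p = 0.625 in edgeR). *Plod1*, the helical lysyl hydroxylase that completes the complex, overlapped, with a log2 fold change of -0.26 ± 0.15. *Plod2*, the hydroxylase of telopeptide lysines, named after its values were seen, had 87.1, 87.4 and 174 CPM in the cKO libraries, against 183, 159 and 198 CPM in the control libraries. Its cKO replicates 1 and 2 were the lowest values and cKO replicate 3 lay among the controls, at a log2 fold change of -0.63 ± 0.28 (adjusted p = 0.667 in edgeR). *Plod3*, which also transfers sugar to hydroxylysine, was at 0.03 ± 0.17. Of the galactosyltransferases, *Colgalt1* was lower in every cKO library (-0.21 ± 0.11, adjusted p = 0.692 in edgeR), and *Colgalt2* averaged 3.01 CPM in cKO and 2.91 CPM in control libraries, with overlap.

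Among the 6 chaperones and isomerases, 2 passed the study's thresholds as lower, and all 6 log2 fold changes were below 0, with a median of -0.41. *Fkbp11*, an isomerase of secretory cells (ENSMUSG00000003355, chromosome 15, 98724366 to 98728198), had 8.71, 10.0 and 12.9 CPM in the cKO libraries, against 17.6, 15.8 and 21.1 CPM in the control libraries, with no overlap. This is a log2 fold change of -0.78 ± 0.20 (adjusted p = 0.604 in edgeR), the largest difference of this role. *Fkbp7*, another ER isomerase (ENSMUSG00000002732, chromosome 2, 76663044 to 76673116), had 44.4, 60.2 and 41.0 CPM in the cKO libraries, against 85.2, 84.2 and 59.2 CPM in the control libraries. The groups overlapped, since cKO replicate 2 lay just above control replicate 3, and each cKO library was below the control of its own number, at a log2 fold change of -0.65 ± 0.20 (adjusted p = 0.625 in edgeR). *Serpinh1*, which encodes HSP47, the collagen-specific chaperone (ENSMUSG00000070436, chromosome 7, 99345376 to 99353239), had 1414, 1353 and 1928 CPM in the cKO libraries, against 1834, 1937 and 2505 CPM in the control libraries. Its groups overlapped at replicate 3 of the cKO group, at a log2 fold change of -0.42 ± 0.20 (adjusted p = 0.673 in edgeR). Per kilobase of exon it stood at 223 CPM per kilobase in cKO and 298 in control libraries. Of the other isomerases, *Fkbp14* had no overlap (-0.41 ± 0.11, adjusted p = 0.625 in edgeR), while *Fkbp10*, which works on type I procollagen with HSP47, overlapped (-0.37 ± 0.16), as did *Fkbp9* (-0.12 ± 0.14).

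*Creb3l1*, also called OASIS, is a transcription factor of the ER membrane that is cut free to enter the nucleus and is known to activate type I collagen transcription in bone. Of the 3 genes of export, calcium and transcription it was the one lower at the study's thresholds (ENSMUSG00000027230, chromosome 2, 91982328 to 92024502). It had 51.2, 40.6 and 144 CPM in the cKO libraries, against 159.6, 169.8 and 233 CPM in the control libraries. The groups did not overlap, and cKO replicate 3 was near the lowest control, at a log2 fold change of -1.26 ± 0.48 (adjusted p = 0.644 in edgeR). *Mia3*, or TANGO1, which loads procollagen into transport carriers, had a log2 fold change of -0.16 ± 0.14, with overlap. *Tmem38b*, the TRIC-B cation channel that balances calcium release from the ER, was the only one of the 37 with every cKO library above every control, and is named for that after its values were seen. It had 10.8, 14.0 and 8.85 CPM in the cKO libraries, against 8.28, 7.95 and 7.99 CPM in the control libraries, at a log2 fold change of 0.48 ± 0.20 (adjusted p = 0.662 in edgeR), which is past neither threshold.

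Genes that remove the propeptides from either end of procollagen were lower, with 4 of 7 genes past the study's thresholds and a median log2 fold change of -0.63. *Bmp1*, the C-propeptidase that also activates lysyl oxidase (ENSMUSG00000022098, chromosome 14, 70474558 to 70520234), had 453, 334 and 488 CPM in the cKO libraries, against 665, 668 and 645 CPM in the control libraries. The controls lay close together and every cKO library was well below them, at a log2 fold change of -0.63 ± 0.16 (adjusted p = 0.587 in edgeR). *Pcolce*, the enhancer that binds the C-propeptide and speeds *Bmp1* (ENSMUSG00000029718, chromosome 5, 137605103 to 137613784), had 352, 351 and 572 CPM in the cKO libraries, against 791, 768 and 1039 CPM in the control libraries. No value overlapped, and replicate 3 was the highest of each group, at a log2 fold change of -1.03 ± 0.23 (adjusted p = 0.558 in edgeR), the smallest p of this role. It was also the gene of this role with the highest count, and per kilobase it stood at 107 CPM per kilobase in cKO and 217 in control libraries.

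*Adamts2*, the main N-propeptidase of type I procollagen (ENSMUSG00000036545, chromosome 11, 50602084 to 50807573), had 62.6, 44.9 and 174 CPM in the cKO libraries, against 193, 202 and 245 CPM in the control libraries. The cKO libraries were spread widely and did not reach the controls, at a log2 fold change of -1.19 ± 0.49 (adjusted p = 0.658 in edgeR). *Adamts14*, a second enzyme that cuts the N-propeptide (ENSMUSG00000059901, chromosome 10, 61197112 to 61273438), had 8.71, 4.67 and 34.2 CPM in the cKO libraries, against 70.6, 74.2 and 83.6 CPM in the control libraries. Even cKO replicate 3 held less than any control, at 44.9% of the control mean, and a log2 fold change of -2.26 ± 0.69 (adjusted p = 0.625 in edgeR) is the largest difference among the 37. *Adamts3*, the third N-propeptidase, overlapped (-0.39 ± 0.20). The paralogs *Pcolce2* and *Tll1* were low and overlapped, on average at 4.55 and 5.54 CPM in cKO libraries, against 3.37 and 4.17 CPM in control libraries.

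Cross-linking and matrix binding held the largest share of lower genes, 4 of 6, with a median log2 fold change of -1.04. *Lox*, the lysyl oxidase that starts cross-linking of type I collagen (ENSMUSG00000024529, chromosome 18, 52516069 to 52529867), had 50.7, 59.2 and 156 CPM in the cKO libraries, against 286, 280.3 and 280.2 CPM in the control libraries. The controls were nearly equal and the highest cKO library was far below them, at a log2 fold change of -1.67 ± 0.43 (adjusted p = 0.625 in edgeR). *Loxl4*, a member of the same family with scavenger receptor domains (ENSMUSG00000025185, chromosome 19, 42593982 to 42612813), had 9.66, 6.42 and 76.4 CPM in the cKO libraries, against 135, 132 and 173 CPM in the control libraries. Little was left in cKO replicates 1 and 2, and cKO replicate 3 lay below every control, at a log2 fold change of -2.25 ± 0.91 (adjusted p = 0.652 in edgeR). *Loxl3*, of the same branch of the family (ENSMUSG00000000693, chromosome 6, 83034173 to 83052562), had 87.9, 66.7 and 88.7 CPM in the cKO libraries, against 122, 126 and 137 CPM in the control libraries. Here cKO replicate 3 was level with replicate 1 and no groups overlapped, and a log2 fold change of -0.66 ± 0.14 (adjusted p = 0.558 in edgeR) is the smallest p of the role.

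*Loxl1* and *Loxl2* did not share this pattern, and their values were picked for print after they were seen. *Loxl1*, best known for elastic fibres, had 33.9, 33.7 and 37.7 CPM in the cKO libraries, against 30.2, 33.1 and 37.4 CPM in the control libraries, and *Loxl2*, which cross-links basement membrane collagen, had 27.9, 25.6 and 45.5 CPM in the cKO libraries, against 25.9, 25.9 and 42.3 CPM in the control libraries. In both genes the groups overlapped, with log2 fold changes of 0.07 ± 0.12 and 0.07 ± 0.29. The difference between these genes and the other lysyl oxidases was not tested.

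*Sparc*, or osteonectin, is a calcium-binding glycoprotein that binds collagen outside the cell and is abundant in bone and dentin (ENSMUSG00000018593, chromosome 11, 55394500 to 55423183). It had 2829, 3042 and 7934 CPM in the cKO libraries, against 12470.5, 11508 and 13172 CPM in the control libraries. No cKO library reached a control, at a log2 fold change of -1.43 ± 0.42 (adjusted p = 0.625 in edgeR). It was by far the most abundant of the 37, at 1079 CPM per kilobase in cKO and 2904 in control libraries, and made up 32.8%, 34.4% and 50.4% of their summed CPM in the cKO libraries, against 59.8%, 57.3% and 56.3% in the control libraries.

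**Figure D2:**
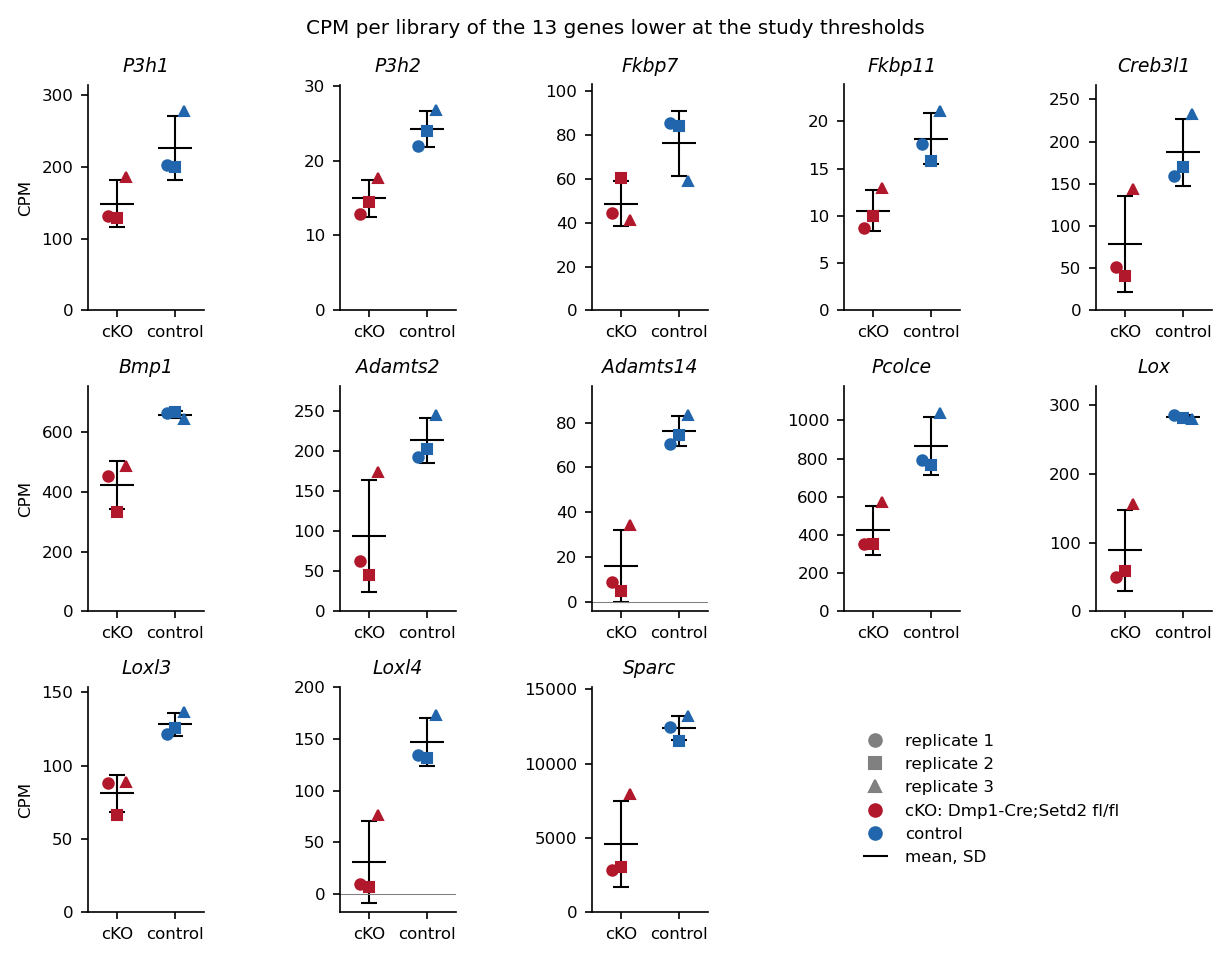
CPM (vertical axes, each starting at or below 0) in each library for the 13 genes lower at the study's thresholds, with cKO on the left and control on the right of each panel, one symbol per replicate number, and black bars for the mean and SD of 3 libraries. In 12 of the 13 panels every cKO point is below every control point, the exception being *Fkbp7*, and cKO replicate 3 is the highest cKO point in all panels but that of *Fkbp7*.

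The libraries of one group were not alike. For the 13 lower genes, levels in cKO replicate 1 were 6.59% to 68.7% of the control mean, in replicate 2 they were 4.38% to 79.0%, and in replicate 3 they were 44.9% to 82.2%. Replicate 3 of the cKO group was closer to the control mean than the mean of cKO replicates 1 and 2 in 12 of the 13 (92.3%), beside 86.8% of all lower genes. Replicate 3 was the highest library of both groups at once in 29 of the 37 genes, a pattern found in 29.7% of all genes tested.

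Cell type markers moved between the same libraries. Summed over 9 odontoblast markers, the level was 1480.4, 981 and 8335 CPM in cKO libraries and 19275, 19451 and 19712 CPM in control libraries, and 6 of the 9 passed as lower (*Nes*, *Wisp1*, *Dkk1*, *Dmp1*, *Dspp* and *Phex*). The marker lists were chosen with earlier results of these data known. The study itself reports *Dspp*, *Dmp1*, *Dkk1*, *Wisp1* and *Phex* as lower in this RNA-seq, so the 6 of 9 is no independent reading of cell content. The defining marker *Dspp* had 436, 215 and 5299 CPM in the cKO libraries, against 14165, 14372 and 13900.4 CPM in the control libraries, so cKO replicate 3, the library nearest the controls in the collagen-processing genes, also held the most *Dspp* of its group. Of 6 osteoblast markers, *Bglap* and *Bglap2* were lower, with list sums of 1426, 1418 and 2302 CPM in cKO and 2483, 2587 and 2835 CPM in control libraries. The others were not called, with log2 fold changes of 0.01 for *Alpl*, 0.22 for *Spp1*, -0.15 for *Ibsp* and -0.45 for *Sp7*. *Alpl* averaged 1408 CPM in cKO and 1394 CPM in control libraries. None of the 7 dental pulp mesenchyme markers was called, but all 7 log2 fold changes were positive, with a median of 0.19. Their sums were 3111, 3609.9 and 3899 CPM in cKO and 2705, 2799 and 2889 CPM in control libraries, without overlap. Dental epithelium markers (6 genes, among them the enamel genes *Amelx*, *Ambn* and *Enam*) set the replicates apart rather than the groups in their sum. They summed to 7100.0, 2181 and 49807 CPM in cKO and 7243, 2626 and 30119.5 CPM in control libraries, highest in replicate 3 of each group, with 0 of 6 called and none at 0 in all libraries. *Epcam*, listed among the 6, did not follow the sum, with 2.06, 2.07 and 10.9 CPM in cKO and 11.1, 8.05 and 10.7 CPM in control libraries. Neutrophil markers were higher in cKO for 2 of 5 tested (*Camp* and *Ngp*), from low list sums of 67.2, 134 and 5.16 CPM in cKO and 20.5, 11.7 and 4.37 CPM in control libraries. No gene of the endothelial, mural, macrophage, osteoclast, glial or erythroid lists was called. The part of these shifts in the collagen-processing genes was not tested.

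**Figure D3:**
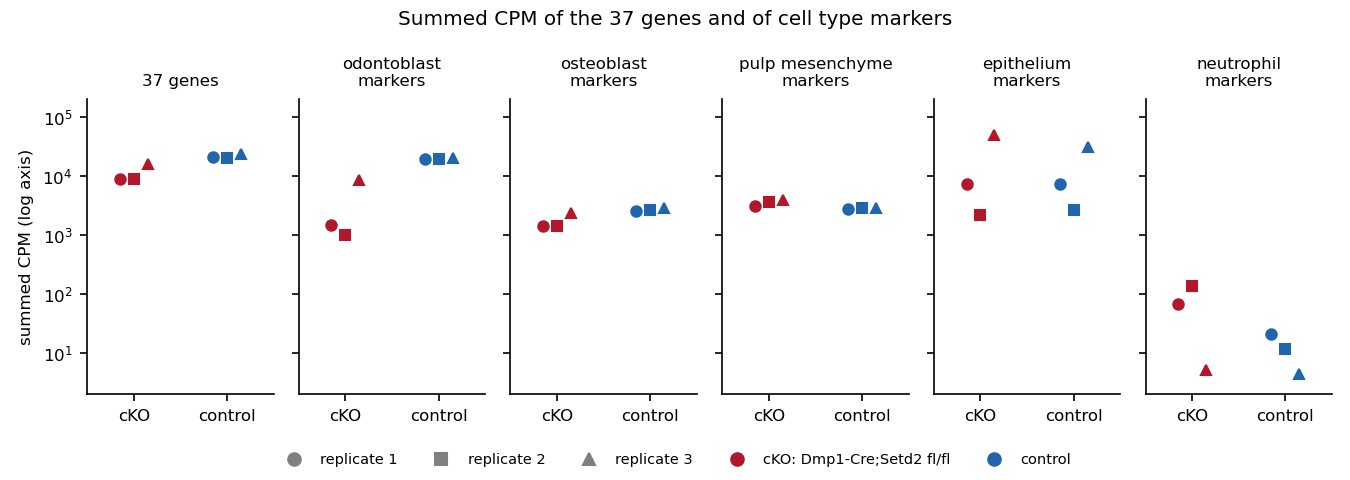
Summed CPM (vertical axis, logarithmic) of the 37 genes and of 5 marker lists, with the 3 cKO libraries on the left and the 3 control libraries on the right of each panel and one symbol per replicate number. The 37 genes and the odontoblast markers are lowest in cKO replicates 1 and 2, while the epithelium markers are highest in replicate 3 of both groups.

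Summed over the 37 genes, the level was 8634, 8842 and 15739 CPM in cKO libraries and 20853, 20073 and 23415 CPM in control libraries, so the mean of the cKO group was 51.6% of the control mean. Without *Sparc* the sums were 5805, 5799 and 7805 CPM in cKO and 8382, 8565 and 10243 CPM in control libraries. The groups did not overlap in either sum. By role, the cKO mean was 85.2% of the control mean for proline modification, 76.0% for lysine modification, 78.3% for chaperones and isomerases, 60.7% for export, calcium and transcription, 54.0% for propeptide removal and 37.5% for cross-linking and matrix binding. The last sum was mostly *Sparc*, with 4602 of 4871 CPM in cKO and 12384 of 13005 CPM in control libraries on average. Its 37.5% therefore mainly repeats the 37.2% of *Sparc* and says little about the lysyl oxidases.

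Their main substrate was lower too. *Col1a1* and *Col1a2*, the chains of type I collagen, together had 9210.4, 7126 and 49009 CPM in cKO and 80492, 81511 and 98120.0 CPM in control libraries, 25.1% of the control mean. *Col1a1* was at a log2 fold change of -2.20 ± 0.84 and *Col1a2* at a log2 fold change of -1.64 ± 0.64 (adjusted p = 0.638 and 0.644 in edgeR). Set against these counts in the same library, which removes the scaling of library size, the 37 genes had log2 ratios of -0.09, 0.31 and -1.64 in cKO and -1.95, -2.02 and -2.07 in control libraries, a mean difference of 1.54. Because the type I collagen counts were themselves lower, a gene at equal CPM in both groups would have a difference of 2.55. A smaller one means that its CPM, averaged on the log scale, was lower in cKO libraries. *Pcolce2* (2.53) and *Colgalt2* (2.47) had smaller ones although their arithmetic mean CPM was higher in cKO libraries. Ratios in the control libraries lay close together, ratios in the cKO libraries were higher and spread widely, and the value of cKO replicate 3 was nearest to the controls. The mean ratio was higher in cKO for 35 of the 37 genes and for 99.7% of the 16481 tested genes with a count in every library. The median difference was 2.12 on the log2 scale over the 37, beside 2.56 over those genes, and the largest of the 37 was 3.00 for *Tmem38b*.

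The genes closest to type I collagen in their reduction were *Loxl4*, *Adamts14*, *Lox*, *Sparc*, *Creb3l1* and *Adamts2*. *Loxl4* had log2 ratios of -9.90, -10.12 and -9.33 in cKO and -9.22, -9.27 and -9.15 in control libraries, lower in every cKO library, with a mean difference of -0.57. *Adamts14* had -10.05, -10.58 and -10.48 in cKO and -10.16, -10.10 and -10.20 in control libraries, overlapping, with a mean difference of -0.22. *Lox* had -7.51, -6.91 and -8.29 in cKO and -8.14, -8.18 and -8.45 in control libraries. Its cKO replicate 3 lay among the controls and the other cKO libraries above them, for a mean difference of 0.69, beside 0.95 for *Sparc*, 1.08 for *Creb3l1* and 1.12 for *Adamts2*. For *P4hb*, a gene that did not differ in CPM beyond its error, the ratios were -3.78, -3.18 and -5.88 in cKO and -6.84, -6.77 and -6.73 in control libraries, a mean difference of 2.50.

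**Figure D4:**
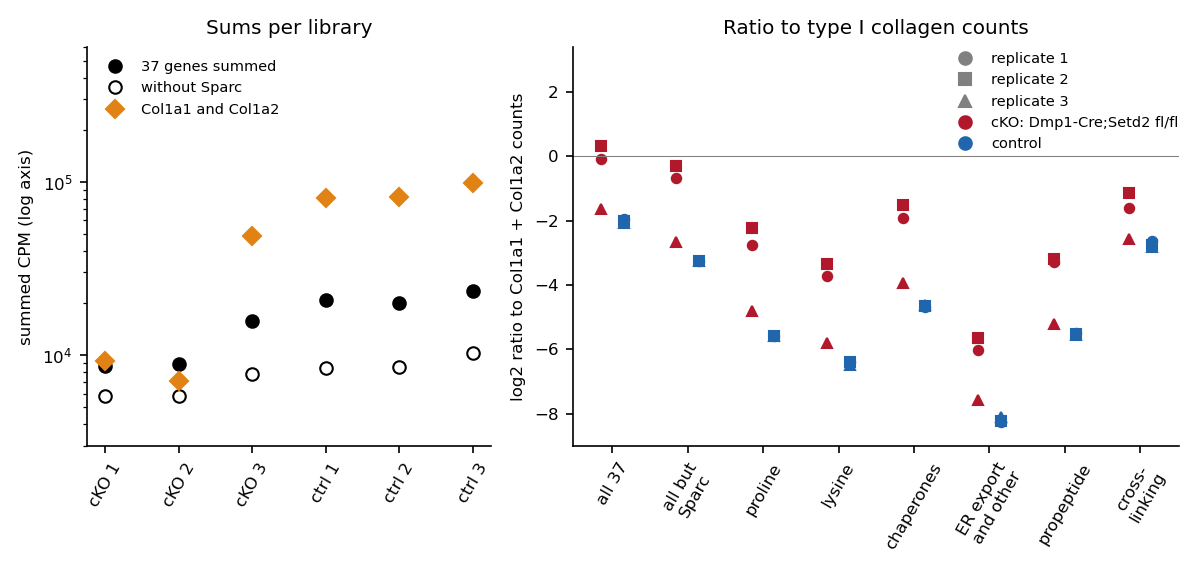
Left, summed CPM per library (vertical axis, logarithmic) of the 37 genes, of the 37 without *Sparc*, and of *Col1a1* and *Col1a2*. Right, log2 ratio of summed counts to *Col1a1* plus *Col1a2* counts in each library for all 37 genes, all but *Sparc*, and each role, with cKO left of control. Control libraries lie close together in each column, and cKO replicates 1 and 2 lie highest in each.

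Other genes of the pathway are given by count, from lists chosen with earlier results of these data known. Of the 11 fibrillar collagen chains, 5 passed as lower (*Col1a1*, *Col1a2*, *Col5a2*, *Col11a1* and *Col24a1*), with a median log2 fold change of -1.05. Of the 20 genes of procollagen export (the COPII coat, its regulators and cargo receptors) none was called, with a median of -0.13 and 3 lower at an unadjusted p under 0.05. Of the 20 tested genes of general ER folding 1 was lower, the chaperone *Hyou1*, which had 57.9, 53.1 and 74.7 CPM in the cKO libraries, against 82.8, 86.5 and 145 CPM in the control libraries, and the median was -0.12. Of 9 genes of the CREB3 family, their site proteases and related ER stress factors, *Creb3l3* alone was called, at 0.813, 0.583 and 3.26 CPM in cKO and 5.20, 4.84 and 6.46 CPM in control libraries, with a median of -0.13 for the list. Of 8 genes listed for cofactor supply, such as transporters of vitamin C and metals, 1 was lower, the ER zinc transporter *Slc39a13*, which had 66.7, 55.0 and 109 CPM in the cKO libraries, against 121, 116 and 153 CPM in the control libraries. Of 10 tested partners of *Lox* and *Bmp1* on the fibril, the proteoglycan *Bgn* was lower (-1.01 ± 0.24) and the elastic fibre protein *Fbln5* was higher (0.61 ± 0.23), with a median of -0.09. For comparison, 2.71% of all genes were called lower.

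The number of calls changed with the handling of replicate 3. Across genes, the libraries of replicate 3 deviated together from their group means (correlation 0.663). The other numbers are not clear pairs, since cKO replicate 1 correlated about equally with control replicates 1 (0.453) and 2 (0.455). A fit in edgeR that blocks on the number assumes pairs for replicates 1 and 2 too. It called 7 of the 37 lower at an adjusted p under 0.05, against 0.799% of all genes. These were *P3h1*, *P3h2*, *P3h4*, *Fkbp7*, *Fkbp11*, *Pcolce* and *Loxl3*, genes whose differences were moderate and even, with *Pcolce* at an adjusted p of 0.0167 in edgeR. With the block, *Adamts14* (log2 fold change -2.68, adjusted p = 0.303) and *Loxl4* (-3.07, adjusted p = 0.349) were no longer past the study's thresholds in edgeR, and *Plod2* was (-0.71, adjusted p = 0.113).

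Without cKO replicate 3, 13 of the 37 were lower at an adjusted p under 0.05 in edgeR, against 2.65% of all genes, among them *Lox* (-2.36, adjusted p = 0.000147), *Loxl4* (-4.19, adjusted p = 0.000147) and *Creb3l1* (-2.03, adjusted p = 0.00219). Without replicate 3 of both groups there were 18, against 4.48% of all genes. Of the 13 genes lower at the study's thresholds, 12 had cKO replicate 3 nearer the control mean than the other cKO libraries averaged. Its removal enlarges those differences by construction. Leaving out cKO replicate 1 instead left every adjusted p of the 37 at 0.765 or above in edgeR, and leaving out cKO replicate 2 at 0.9997. On all libraries, adjusted p-values in edgeR were 0.545 or above with RLE size factors and 0.154 or above without the filter on low counts. DESeq2 called 7 of the 37 on all libraries, against 0.708% of all genes, and limma voom with quality weights called 22, against 5.67%. At the study's thresholds, *P3h2*, *Fkbp11*, *Pcolce*, *Lox* and *Sparc* were lower under all 13 alternatives run. The calls of *Creb3l1*, *Adamts2* and *Loxl4* were lost when any library but cKO replicate 3 was left out singly, and without cKO replicate 2 the count of lower genes was 8 of 37.

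**Figure D5:**
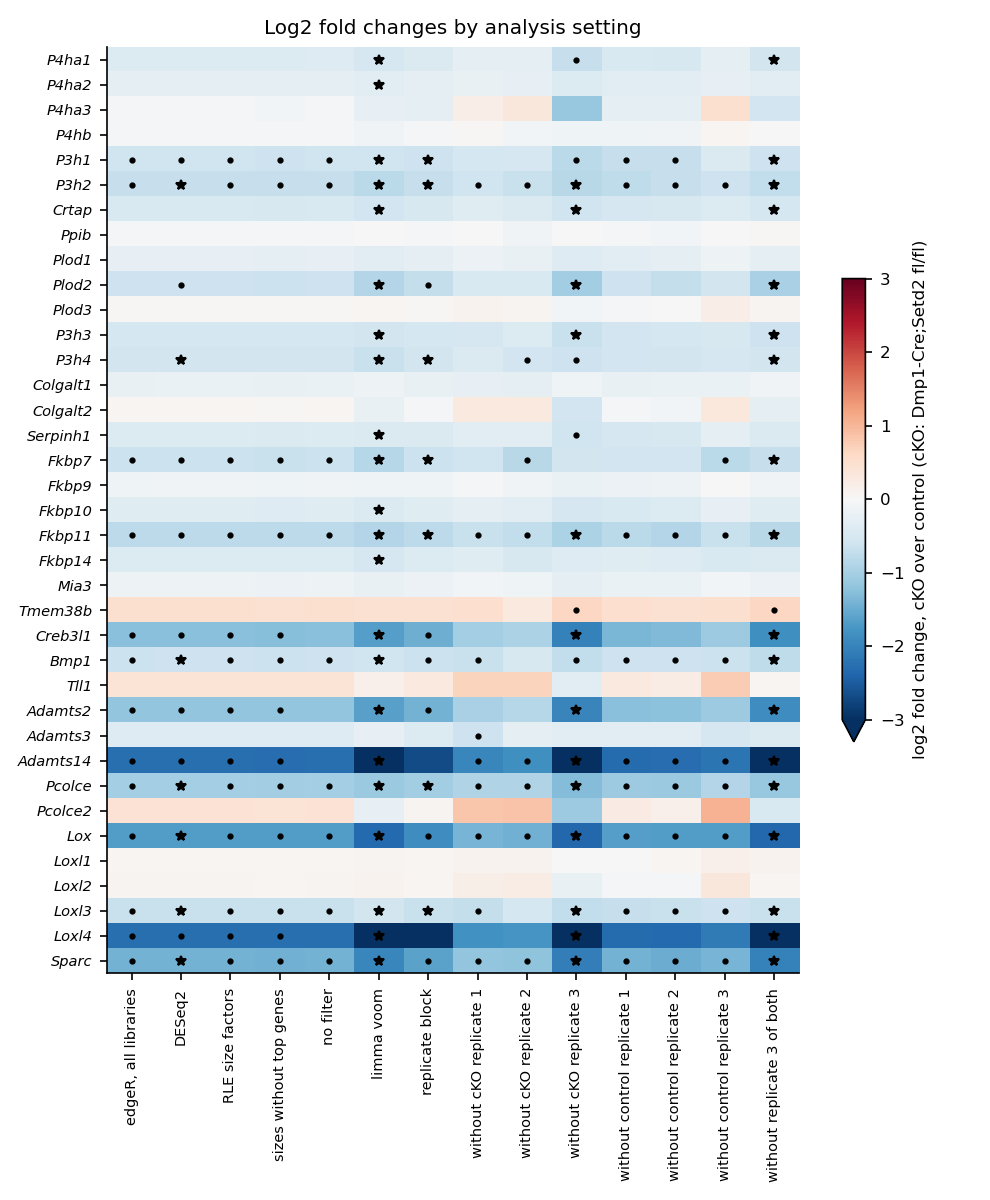
Log2 fold change, cKO over control (color), of the 37 genes (rows, in order of role) under each setting (columns). Dots mark genes past the study's thresholds and stars genes at an adjusted p under 0.05. Stars appear in the columns of DESeq2, limma voom, the replicate block and the fits without cKO replicate 3 or without replicate 3 of both groups, and *Tmem38b* alone carries a mark on the higher side.

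The sequences in front of the genes were searched for short motifs, and no link of these to the differences was tested. RefSeq promoters (GRCm38.p6) were at hand for 25 of the 37 genes, 8 of them among the 13 lower ones, and the 250 bases before the start were searched on both strands. The start is that of RefSeq, and for 21 of the 25 genes at least 1 such start lay within 100 bases of the gene's start in the deposited table. For the other 4, *Pcolce*, *Sparc*, *Tll1* and *P4ha2*, it lay farther inside the gene. The GC box (GGGCGG, or CCGCCC where it lies on the opposite strand), the letters that SP1-type factors bind, was found in 18 of the 25 genes and in 7 of the 8 lower ones, against 35.4% of 27025 genes with a promoter in the table. Among the lower ones, *Pcolce* and *Fkbp11* had it only before starts 2380 and 571 bases inside the gene. The windows of the 25 genes are also richer in G and C, with a median of 61.2% in the 25 genes and 59.4% in the 8 lower ones, against 52.8% over all genes. The core of ATF and CREB family sites (TGACGT) was found in 4 of the 25, namely *Adamts3*, *Colgalt1*, *Fkbp7* and *Mia3*, and in 1 of the 8 lower ones, against 7.29% of all genes. A TATA box (TATAAA) was found in *Crtap* and *Plod1* and in 0 of the 8 lower ones, against 14.3% of all genes. A CCAAT box (CCAAT) was found in 8 of the 25 and in 2 of the 8 lower ones, against 37.5%.

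The 150 bases just before the RefSeq start are printed for *Adamts14* and *Loxl4*, which differed most, for *Pcolce* and *Fkbp7*, which were called with the replicate block, for *Sparc*, the most abundant, and for *Ppib*, which did not differ beyond its error. They lie at chr10:61273420-61273569 on the minus strand, chr19:42612807-42612956 on the minus strand, chr5:137611405-137611554 on the minus strand, chr2:76673099-76673248 on the minus strand, chr11:55420081-55420230 on the minus strand and chr9:66060019-66060168 on the plus strand. Capitals mark GC boxes on either strand and, in *Fkbp7*, the TGACGT core 17 bases before the start. The windows of *Pcolce* and *Sparc* stand before starts 2380 and 3103 bases inside the gene as the deposited table gives it, and the sequence before the table's own start was not searched.
Adamts14: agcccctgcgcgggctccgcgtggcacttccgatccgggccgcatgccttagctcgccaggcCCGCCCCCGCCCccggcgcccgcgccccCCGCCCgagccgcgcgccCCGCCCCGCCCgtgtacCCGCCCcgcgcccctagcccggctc
Loxl4: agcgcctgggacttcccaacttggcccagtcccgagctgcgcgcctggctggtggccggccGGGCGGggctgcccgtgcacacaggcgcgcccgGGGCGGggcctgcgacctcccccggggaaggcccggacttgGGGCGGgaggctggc
Pcolce: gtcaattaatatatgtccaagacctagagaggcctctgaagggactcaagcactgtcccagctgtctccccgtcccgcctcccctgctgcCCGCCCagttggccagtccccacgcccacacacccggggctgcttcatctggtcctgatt
Fkbp7: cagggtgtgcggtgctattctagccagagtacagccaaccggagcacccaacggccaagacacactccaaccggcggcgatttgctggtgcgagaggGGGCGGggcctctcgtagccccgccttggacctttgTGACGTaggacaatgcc
Sparc: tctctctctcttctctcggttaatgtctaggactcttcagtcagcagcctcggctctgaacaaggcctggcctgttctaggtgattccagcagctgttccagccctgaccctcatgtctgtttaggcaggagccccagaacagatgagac
Ppib: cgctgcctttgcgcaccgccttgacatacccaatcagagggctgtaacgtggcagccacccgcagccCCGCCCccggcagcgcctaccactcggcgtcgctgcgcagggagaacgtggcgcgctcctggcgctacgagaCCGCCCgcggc

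*Adamts14* held 6 GC boxes in this stretch and *Loxl4* 3, while *Pcolce* and *Fkbp7* held 1 each, *Ppib* 2 and *Sparc* none. A GC box stood both before genes that differed most and before *Ppib*, and none was in the *Sparc* window, which lies inside the gene as the table gives it.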

How the data were processed

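RNA-seq of 6 libraries of mDPCs was used, 3 cKO and 3 control, grouped by the sample labels. HISAT2 was the aligner and HTSeq the counter, and the authors deposited whole-number counts per gene, not normalized. The same table carries their own DESeq2 result, which was not used here. The authors deposited it as a signal (mean normalized count), a fold change or ratio, a log2 value of that ratio, and p-values. All 6 count columns were used (0 unused), and each line names a gene.

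Counts were analysed in R 4.3.3 with edgeR 4.0.16, by the robust quasi-likelihood F test after TMM scaling. Genes entered through filterByExpr (minimum count 10), and p-values were adjusted by Benjamini-Hochberg over the 16519 genes that passed. The standard error is the size of the log2 fold change divided by the square root of F. The 37 genes and all gene lists were chosen with earlier results of these data known. Values in every library were to be given for genes past the study's thresholds and, in each role, for the gene with the smallest p and the gene with the highest mean CPM. Values of any other gene were chosen for print after they were seen. Of the listed names, *Ero1a*, *Ero1b* and *Fbln4* matched no gene name of the table. *Fbln4* is another name of *Efemp2*, which was also listed and was tested (log2 fold change -0.34 ± 0.14).

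The comparison was repeated by DESeq2 1.42.0 and by voom with quality weights in limma 3.58.1. In edgeR it was repeated with RLE size factors, with library size taken without the 100 highest genes, and without the filter. It was also repeated with a block for the replicate number, after leaving out single libraries, and after leaving out replicate 3 on both sides. Numbers come from the labels. Libraries of the same number deviated together from their group means (correlations over genes of 0.453, 0.465 and 0.663). Deviations cancel out within a group, so a shared deviation of replicate 3 makes replicates 1 and 2 correlate in either matching. Indeed cKO replicate 1 and control replicate 2 correlated at 0.455, and cKO replicate 2 and control replicate 1 at 0.380. The block took the numbers as pairs, which for replicates 1 and 2 is an assumption that these correlations cannot check. Variation between libraries was 25.3% (common dispersion 0.064). The counting error of a single count reached 22.4% for the lowest count of any of the 37 genes (20, in *P4ha3*), and no libraries differed by less than sampling noise.

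Gene positions were taken from the table. GRCm39 is the build in the submitters' notes, yet positions lie within 1000 bases at both ends of RefSeq GRCm38.p6 for 18238 (74.4%) of 24507 shared genes, against 790 (2.60%) of 30436 shared with a GRCm39 annotation. CPM per kilobase uses the summed exon length of each gene in GENCODE vM39, and sequences are from RefSeq promoters. The study's other assays were not analysed here.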

Additional observations from a re-analysis of the deposited data

How the results depend on the processing

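Of the 37 genes, 28 kept the sign of their log2 fold change under all alternatives run. The other 9 lay near 0 or were low in counts, and none of them was called on all libraries. With 1 library left out, *P4hb* (-0.05 on all libraries) ranged over -0.133 to 0.0682, *P4ha3* (-0.07) over -1.14 to 0.48, *Plod3* (0.03) over -0.0887 to 0.193, *Colgalt2* (0.05) over -0.58 to 0.31, *Tll1* (0.41) over -0.32 to 0.76, *Pcolce2* (0.43) over -1.09 to 1.03, *Loxl1* (0.07) over -0.0059 to 0.15 and *Loxl2* (0.07) over -0.23 to 0.34. Without replicate 3 of both groups *P4hb* was at 0.0098, *Ppib* at 0.0362, *Colgalt2* at -0.30 and *Pcolce2* at -0.46. By limma voom *Colgalt2* was at -0.23 and *Pcolce2* at -0.24, and with the replicate block *Colgalt2* was at -0.0426. Of 481 comparisons of a gene with its value on all libraries, 410 stayed on the same side of the study's thresholds, 31 no longer passed, 16 newly passed and 24 turned. RLE size factors and library sizes without the 100 highest genes changed no count by over 1.5 times, and none of the scalings moved the median of all genes by more than 0.03.

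At the study's thresholds the 13 lower members became 8 to 18 with 1 library left out, and the count of higher members became 0 to 1, the 1 being *Tmem38b* without cKO replicate 3. It was also 1 without replicate 3 of both groups. Over all genes, leaving out 1 library gave 282 to 1161 lower and 83 to 677 higher genes. Limma voom gave 1109 lower and 458 higher, the replicate block 722 and 339, fits without replicate 3 of both groups 1261 and 750, and no filter 338 higher.

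At an adjusted p under 0.05, 0 members were lower on all libraries, 7 by DESeq2, 22 by limma voom, 7 with the replicate block, 18 without replicate 3 of both groups, and 0 to 13 with 1 library left out. Lower and higher genes were 117 and 24 by DESeq2, 4 and 2 with no filter, 936 and 375 by limma voom, 132 and 29 with the replicate block, 749 and 389 without replicate 3 of both groups, and 0 to 447 and 0 to 114 with 1 library left out. The causes of these changes were not tested. Counts were lowest for *P4ha3*, *Pcolce2*, *Colgalt2* and *Tll1*, at 20 to 193 per library, while each of the other genes had 88 counts or more in every library.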
